A study of Rattus norvegicus with 12 samples.

Results

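MicroRNA precursor transcripts are described here in the urinary bladder of rats whose spinal cord had been cut. The members are the 104 non-coding transcripts that the deposited table types as precursor RNA and that hold at least 30 read counts summed over the 12 libraries, out of 452 precursor rows and 15516 non-coding transcripts in all. The animals were female Wistar rats aged 10 to 12 weeks, with no transgene or other allele named. Bladders were taken at 7, 14 and 28 days after a complete transection of the cord, placed at thoracic segment 10 by the sample labels and at T9 to T10 by the series text, and from controls labelled only as normal, for which no sham operation is stated. Each of these 4 groups has 3 libraries, and whether each library came from a different rat is not stated, so p-values measure the spread between these libraries. RNA was total RNA depleted of ribosomal RNA, read as single reads of 50 bases.

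A microRNA is cut from a hairpin within a longer primary transcript, first in the nucleus by Drosha with Dgcr8 and then in the cytoplasm by Dicer, and the mature strand guides an Argonaute protein to messages that match its seed, the bases near its 5' end. Some microRNA genes are transcription units of their own, and others lie inside a host gene and share its transcript. Libraries of this kind sample long RNA, so a count on a hairpin row is a read from the primary transcript, the hairpin or a host transcript that crosses it. It is no measure of the mature microRNA.

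The mature sequences of the members that the results turn on are shown first, because the names alone do not say which precursors give microRNAs with the same seed. All 104 members were found in RefSeq by transcript accession, and 98 had a mature entry and 91 a hairpin entry. Sequences are from RefSeq on rat build GRCr8, written 5' to 3', with the seed (bases 2 to 8) in capitals. The first set comes from the epithelial precursors Mir205, Mir200a, Mir200b, Mir200c and Mir141.
miR-205: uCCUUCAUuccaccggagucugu
miR-200a-5p: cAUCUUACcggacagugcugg
miR-200b-5p: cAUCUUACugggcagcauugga
miR-200c-5p: cGUCUUACccagcaguguuug
miR-200c-3p: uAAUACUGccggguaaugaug
miR-141-3p: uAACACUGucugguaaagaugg
miR-200a-5p and miR-200b-5p share a seed. Counted from 1 at the 5' end, the seed of miR-200c-5p differs from that of miR-200a-5p by A2G, and the seed of miR-141-3p differs from that of miR-200c-3p by U4C. No 3p mature sequence was listed for Mir200a or Mir200b, so seeds of those arms are not shown. Outside its listed mature stretch the Mir200a hairpin holds the seed bases of miR-141-3p, and the Mir200b hairpin those of miR-200c-3p.

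The second set comes from the other precursors that passed the test in at least 1 comparison, and no seed in it equals another in it.
miR-223-5p: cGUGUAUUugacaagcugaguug
miR-223-3p: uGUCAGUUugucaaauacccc
miR-127-3p: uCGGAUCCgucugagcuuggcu
miR-431: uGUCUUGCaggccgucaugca
miR-485-5p: aGAGGCUGgccgugaugaauuc
miR-485-3p: cAUACACGgcucuccucucuuc
miR-3102: cUCUACUCccugccccagcca
miR-6325: aAAGUCAGacagagacucugcag
Among the mature sequences listed, 11 seeds were shared by more than 1 precursor. Arms without a listing, such as the 3p arms of Mir200a and Mir200b, are not in this count. The largest such family was let-7, whose seed GAGGUAG is carried by 9 let-7 members and by Mir98.

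Because the rows count hairpins and the RNA around them, 2 hairpins are shown whole, with the stretches that RefSeq lists as mature in capitals. Mir205 lies at chr13:107564535-107564642 on the minus strand and Mir223 at chrX:65151383-65151492 on the plus strand of GRCr8.
Mir205 hairpin: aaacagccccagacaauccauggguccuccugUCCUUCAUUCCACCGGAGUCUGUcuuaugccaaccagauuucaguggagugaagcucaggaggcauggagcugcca
Mir223 hairpin: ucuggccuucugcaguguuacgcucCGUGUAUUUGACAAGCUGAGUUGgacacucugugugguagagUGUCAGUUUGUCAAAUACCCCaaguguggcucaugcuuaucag
The Mir205 row spans 108 bases and the Mir223 row 110 bases in the deposited table too, so a read of 50 bases covers a large part of such a row.

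The precursors were rare RNAs. Library totals, summed over the deposited gene table, ran from 26275314 to 30747936 counts, and levels are given as CPM, a row's counts over that total scaled to 1000000 counts. The 104 members held 20594 counts together, the median member held 82.5 counts over all 12 libraries, and its mean level was 0.242 CPM. Between 88 and 99 members had a count in a given library, and 58 members were at 0 in at least 1 library. In these sparse rows replicates of a group differed by 2.86 to 3.64 times the counting variance (chi-square per degree of freedom over members), so each library was kept as its own sample. Just inside the limit lay Mir30c2, Mirlet7f-2, Mir18a and Mir324 at 30 counts each, and just outside it Mir665 at 29, Scarna3 at 28 and Mir30b at 27.

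Counts were concentrated in few rows: the top 10 members held 56.5% of them and the top 2 held 21.5%. Mir145 led with 2412 counts and a mean of 7.09 CPM, followed by Mir568 with 2020 counts and 5.93 CPM. Next came Mir3102 (3.66 CPM), Mir143 (3.28 CPM), Mir3577 (3.21 CPM), Mir205 (2.92 CPM) and Mir6315 (2.83 CPM). Mirlet7d (1.78 CPM), Mir200b (1.71 CPM) and Mir186 (1.61 CPM) completed the 10. Mir143 and Mir145 are neighbours in a cluster known for smooth muscle, Mir205 and Mir200b are known from epithelia, and let-7 microRNAs from differentiated cells. Defining markers of bladder were abundant, with Upk1a, a uroplakin of the urothelial surface, at 442373 summed counts and the smooth muscle myosin Myh11 at 2607188. Among the members, 2 carry names of other small RNAs that guide base modification, Snora58 with 107 counts and Scarna15 with 42.

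**Figure D1:**
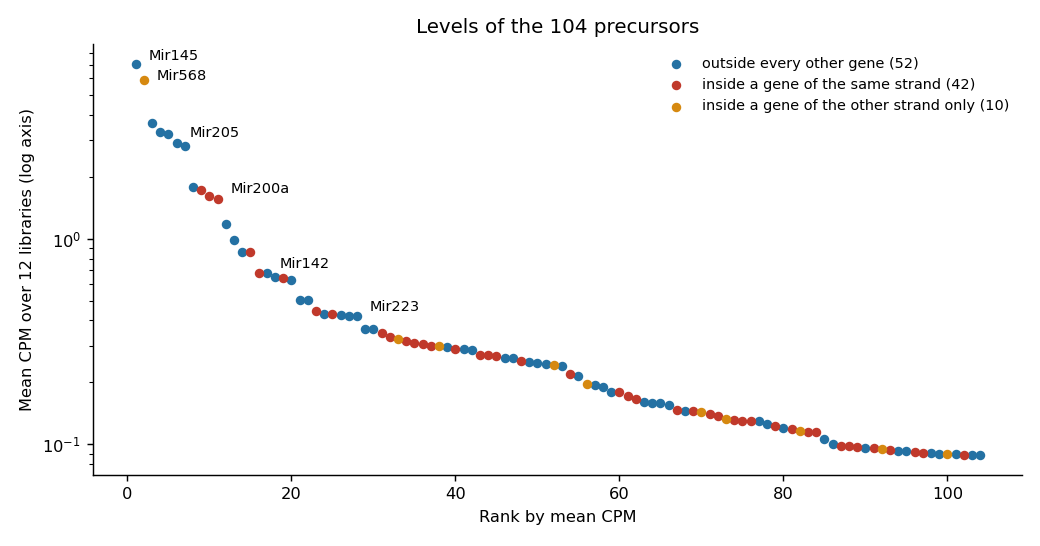
Mean level of each of the 104 precursors over the 12 libraries (CPM, log axis) against its rank, coloured by whether the hairpin lies inside another gene. The 2 highest rows, Mir145 at 7.09 CPM and Mir568 at 5.93 CPM, stand above a long tail with a median of 0.242 CPM.

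Summed over members, precursors made up 69.9, 63.5 and 68.0 CPM in control libraries. The sums were 61.4, 48.7 and 44.4 CPM at day 7, 71.0, 57.7 and 61.2 CPM at day 14, and 60.3, 58.0 and 57.7 CPM at day 28. On this scale every day-7 and day-28 library lay below the lowest control, while day 14 overlapped the controls. The scale leaves out the TMM scaling factors that the tests below use. Those factors were 0.950, 0.945 and 0.900 at day 7 and 1.01, 1.02 and 1.02 in controls. Day-7 levels thus read lower here than in the tests, and the separation at day 7 is stated for this scale only. Mir145 and Mir568 weigh most in these sums.

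Each day was compared with control, and days 14 and 28 with day 7, by the quasi-likelihood test of edgeR over all 5245 non-coding transcripts with at least 30 counts. A transcript was called at a Benjamini-Hochberg adjusted p under 0.05. At day 7 against control 2 of 104 members were called, 1 higher and 1 lower, where 13.5% of all transcripts tested were called (5.61% higher and 7.87% lower). At day 14 none was called (background 1.53%); 10 members were under 0.05 before adjustment, as were 12.8% of all transcripts, and DESeq2 called 0. At day 28 against control 1 member was called, lower (background 10.4%, of which 5.09% lower). Between days, 3 members were called at day 14 against day 7, 1 higher and 2 lower (background 7.93%, split 4.61% and 3.32%). At day 28 against day 7 there were 4, 2 higher and 2 lower (background 7.74%, split 4.42% and 3.32%). Of the called rows, Mir127, Mir485, Mir431 and Mir6325 reached the limit of 30 counts only through the group in which they were higher, so their calls are not independent of that limit. With a limit of 100 counts for a member, 2, 0, 0, 1 and 2 were called in the 5 comparisons in the order given.

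The share of members called was below that of all transcripts in each of these 5 comparisons. The median standard error of a member's log2 fold change was 0.94 at day 7 and 0.93 at day 28, each against control. Over all transcripts tested it was 0.52 at day 28, so the estimates for members were the less precise there. Members whose 3 libraries did not overlap those of the other group numbered 22 at day 7, against 37.5% of all transcripts, 18 at day 14 (background 20.2%) and 19 at day 28 (background 32.6%), each against control. Against day 7 there were 28 such members at day 14 (background 27.9%) and 24 at day 28 (background 28%). The median log2 fold change of members was -0.31 at day 7, 0.09 at day 14 and -0.05 at day 28 against control, beside -0.17, -0.04 and -0.09 over all transcripts tested.

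**Figure D2:**
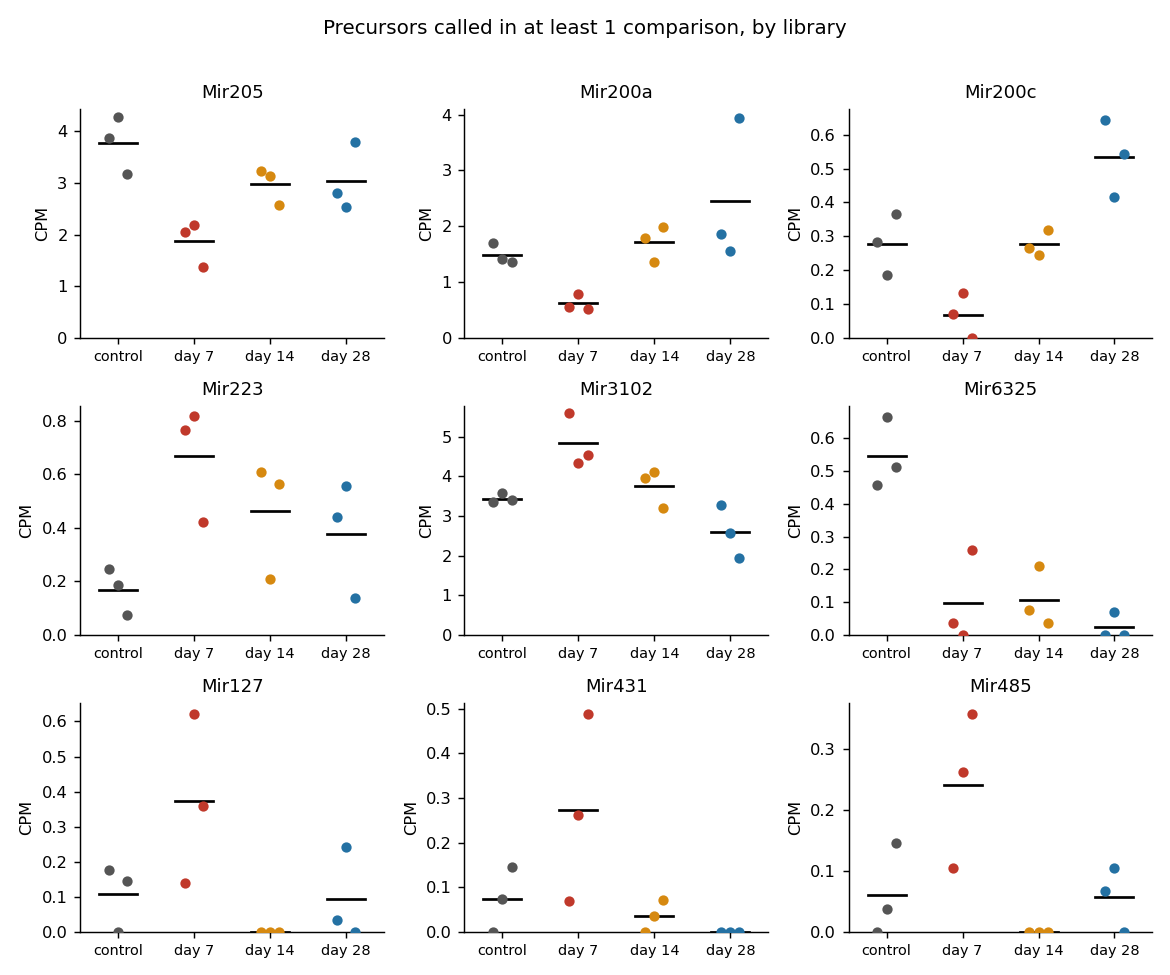
CPM of the 9 precursors called in at least 1 comparison, by library, at control, day 7, day 14 and day 28. Points are libraries and bars are group means; the vertical axes start at 0 and differ between panels. Mir205 and the Mir200 rows are lowest at day 7, Mir223 and Mir3102 are highest there, and Mir127 and Mir485 have no count at day 14.

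The epithelial precursors had lower values at day 7 than in controls or at later days. The list holds Mir205, known from the basal cells of layered epithelia, the Mir200 family with Mir141, which in mammalian cells restrains the transcription factors Zeb1 and Zeb2, and Mir203, known from mouse epidermis. All 6 detected members of the list had a negative log2 fold change at day 7 against control (median -1.03) and a positive one at day 14 (median 1.31) and day 28 (median 1.09) against day 7, and these signs held under each of 3 other scalings. Of all 104 members 42 had a positive log2 fold change at day 7 against control, 69 at day 14 against day 7 and 60 at day 28 against day 7. The test called 1 of the 6 lower at day 7 against control (7.87% of all transcripts), 1 higher at day 14 against day 7 (4.61%) and 2 higher at day 28 against day 7 (4.42%). The 6 rows summed to 4.28, 3.99 and 3.41 CPM at day 7 against 7.71, 8.02 and 7.75 CPM in controls. The seventh gene on the list, Mir429, had 0 counts.

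Mir205 (chromosome 13, 112233283 to 112233390, minus strand, build rn6, outside every other gene of the deposited table) stood at 2.05, 2.19 and 1.37 CPM in day-7 libraries, against 3.87, 4.29 and 3.18 CPM in controls. All 3 day-7 libraries lay below the lowest control, and Mir205 fell by 0.89 ± 0.25 on the log2 scale (SE, n = 3 each, edgeR adjusted p = 0.0256). The authors' deposited table gives Mir205 at day 7 a log2 fold change of -0.70 with q = 0.0545. Of the precursors called here against control, the authors list Mir223 and Mir6325 among changed transcripts, but not Mir205. Their list holds 5 members at day 7, of which Mir99a, Mir6326, Mir31 and Mir328 were not called here. At day 28 it holds 3, of which Mir142 and Mir3593 were not called here. Mir205 stood at 3.23, 3.14 and 2.58 CPM at day 14 and at 2.81, 2.53 and 3.8 CPM at day 28, ranges that overlap the controls. The call was lost, at adjusted p 0.0504 to 0.106, when day-7 replicate 2 or 3 or control replicate 1 or 2 was left out. It was also lost with scaling factors taken from the non-coding table (-0.72, adjusted p = 0.0654).

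Mir200a (chromosome 5, 173489366 to 173489454, minus strand) stood at 0.556, 0.785 and 0.520 CPM at day 7, against 1.69, 1.41 and 1.35 CPM in controls. The groups did not overlap, yet the difference missed the threshold in edgeR (-1.13 ± 0.37, adjusted p = 0.0573). DESeq2 called it (-1.13, adjusted p = 0.0383), as did edgeR with library totals and no scaling factor (-1.25, adjusted p = 0.0340). At day 14 it stood at 1.79, 1.36 and 1.98 CPM and at day 28 at 1.86, 1.56 and 3.93 CPM, each above every day-7 library. Mir200a was higher at day 14 than at day 7 by 1.33 ± 0.37 (adjusted p = 0.0359) and at day 28 than at day 7 by 1.82 ± 0.37 (adjusted p = 0.00756). The highest value came from day-28 replicate 3, without which the day-28 difference was 1.32 (adjusted p = 0.0519). The day-14 call was lost, at adjusted p 0.0502 to 0.116, without day-7 replicate 1, 2 or 3, day-14 replicate 1 or 3 or control replicate 2. It was also lost with scaling factors of the non-coding table (adjusted p = 0.0594) and with only these 2 groups in the fit (0.0774).

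Mir200b, the neighbour of Mir200a on the same strand (173490144 to 173490238), stood at 1.25, 0.687 and 1.30 CPM at day 7 against 1.02, 1.81 and 2.23 CPM in controls, with overlap. At day 28 it reached 2.13, 2.11 and 3.39 CPM, all above day 7, and the difference missed the threshold (1.07 ± 0.36, adjusted p = 0.0917). Mir200c (chromosome 4, 157236786 to 157236854, minus strand) held 19, 12 and 16 counts at day 28 against 2, 4 and 0 counts at day 7. As levels these are 0.644, 0.416 and 0.542 CPM at day 28, above every control (0.282, 0.185 and 0.365 CPM), against 0.0695, 0.131 and 0 CPM at day 7. Mir200c was higher at day 28 than at day 7 by 2.79 ± 0.75 (adjusted p = 0.0322), a ratio of summed counts of 8.03 (95% exact interval 3.43 to 23.0, counting error only). This call was lost, at adjusted p 0.0507 to 0.103, without day-7 replicate 1 or 3 or any one of the 3 day-28 libraries, and also with only these 2 groups in the fit (0.0824).

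Its neighbour Mir141 stood at 0.139, 0.196 and 0.195 CPM at day 7 against 0.422, 0.222 and 0.475 CPM in controls, and it was not called in any comparison (day 7, -0.93 ± 0.56, adjusted p = 0.318). Mir203 held 6, 0 and 1 counts at day 7 against 12, 3 and 4 in controls. At day 14 it held 9, 7 and 34 counts, with most of them in replicate 3. The difference from day 7 missed the threshold in edgeR (2.75 ± 0.97, adjusted p = 0.0994), though DESeq2 called it (2.82, adjusted p = 0.0473).

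Urothelial markers were lower at day 7 too. Of 5 urothelial marker genes 3 were called lower at day 7 against control (Upk1a, Upk1b and Upk3a), and the 5 summed to 2873 to 3325 CPM at day 7 against 4918 to 5617 CPM in controls. At day 14 the sum was 4041 to 4649 CPM and at day 28 3211 to 4227 CPM, with 0 and 3 of 5 called lower against control. At day 28 every Mir200c library stood above the controls and Mir200a overlapped them, while each marker sum stood below the controls. None of the 5 markers was at 0. In whole bladder fewer cells of a type and less RNA per cell cannot be told apart, and the part that the share of urothelium has in the precursor values was not tested.

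Among the immune precursors Mir223 was called higher at day 7. Mir223, known from neutrophils and their progenitors, and Mir142, expressed across blood cells, were the 2 detected members, and both had positive log2 fold changes at all 3 days against control under every scaling tried. Mir223 was not called at days 14 and 28, and Mir142 was not called at any day. Mir146a, which restrains innate signalling in mice, stayed below the limit with 24 counts, of which day 28 held 0, 6 and 12. Mir155 had 0 counts in every library, Mir146b 14 counts and Mir150 6 counts in all.

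Mir223 (chromosome X, 65367812 to 65367921, plus strand, outside every other gene) held 22, 25 and 13 counts at day 7 against 7, 5 and 2 counts in controls. These are 0.765, 0.818 and 0.423 CPM at day 7, against 0.246, 0.185 and 0.0731 CPM in controls, and the groups did not overlap. Mir223 rose by 2.08 ± 0.65 (adjusted p = 0.0444), a ratio of summed counts of 3.94 (95% exact interval 2.18 to 7.63, counting error only). It stood at 0.609, 0.209 and 0.565 CPM at day 14 and at 0.441, 0.555 and 0.136 CPM at day 28, where at least 1 library lay within the control range. The call was lost, at adjusted p 0.0508 to 0.160, without any one of the 3 day-7 or 3 control libraries or without day-28 replicate 1 or 2. It was also lost with library totals and no scaling factor (1.96, adjusted p = 0.0512).

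Mir142 (chromosome 10, 75050839 to 75050925, plus strand) stood at 0.542, 1.32 and 1.86 CPM at day 28 against 0.176, 0.111 and 0.548 CPM in controls. Day-28 replicate 1 lay just below control replicate 3, and the difference missed the threshold in edgeR (2.11 ± 0.69, adjusted p = 0.0626). DESeq2 called it (2.12, adjusted p = 0.0283), and the authors' deposited table lists it among its changed transcripts (log2 fold change 2.23, q = 0.00173). At day 7 it stood at 0.591, 0.131 and 0.748 CPM and at day 14 at 0.685, 0.384 and 1.06 CPM, both overlapping the controls.

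Markers of neutrophils and macrophages were called higher at day 7 as well. Of 4 neutrophil markers 2 (Csf3r and Mpo) were called higher at day 7, and the 4 summed to 13.2 to 25.4 CPM at day 7 against 0.658 to 0.998 CPM in controls. The sum was 5.48 to 139 CPM at day 14, where replicate 3 stood apart, and 11.1 to 44.7 CPM at day 28. All 5 macrophage markers were called higher at day 7 (sum 414 to 516 CPM) and at day 28 (627 to 833 CPM), against 177 to 203 CPM in controls. Of the red cell markers 4 of 4 were called higher at day 7, with sums of 462, 998 and 8340 CPM against 196, 324 and 872 CPM in controls, and none was called at days 14 or 28, where the sums were 98.4 to 210 CPM and 202 to 289 CPM. The part of these cells in the Mir223 and Mir142 values was not tested.

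The muscle precursors include the most abundant member, Mir145, and neither of the pair was called in any of the 5 comparisons. Mir143 and Mir145, a cluster that serum response factor and myocardin drive in smooth muscle, lie on the minus strand of chromosome 18 with Mir145 at 56969907 to 56969994 and Mir143 at 56971273 to 56971377. Mir145 stood at 14.7, 6.14 and 8.26 CPM in controls, 8.59, 3.47 and 2.24 CPM at day 7, 9.51, 7.75 and 7.56 CPM at day 14 and 7.90, 5.20 and 3.73 CPM at day 28. Control replicate 1 alone is well above the rest, and every injured group overlaps the controls. Its log2 fold change was -0.92 ± 0.40 at day 7 (adjusted p = 0.150) and -0.81 ± 0.40 at day 28 (adjusted p = 0.239). Without day-7 replicate 1, the highest of that group, the day-7 value was -1.63 and passed the threshold (adjusted p = 0.00701).

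Mir143 stood at 3.19, 2.15 and 2.58 CPM at day 28, against 4.54, 3.48 and 6.07 CPM in controls, without overlap and without a call (-0.85 ± 0.34, adjusted p = 0.137). Smooth muscle markers at day 7 summed to 13522 to 21705 CPM against 15460 to 17727 CPM in controls, with 3 of 4 (Acta2, Cnn1 and Des) called higher. At day 28 the sum was 6872 to 14684 CPM, with 0 of 4 called against control and 3 of 4 called lower than at day 7. Mir1 and Mir133a, of striated muscle, had 5 and 4 counts in all libraries together, and Mir133b 0.

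**Figure D3:**
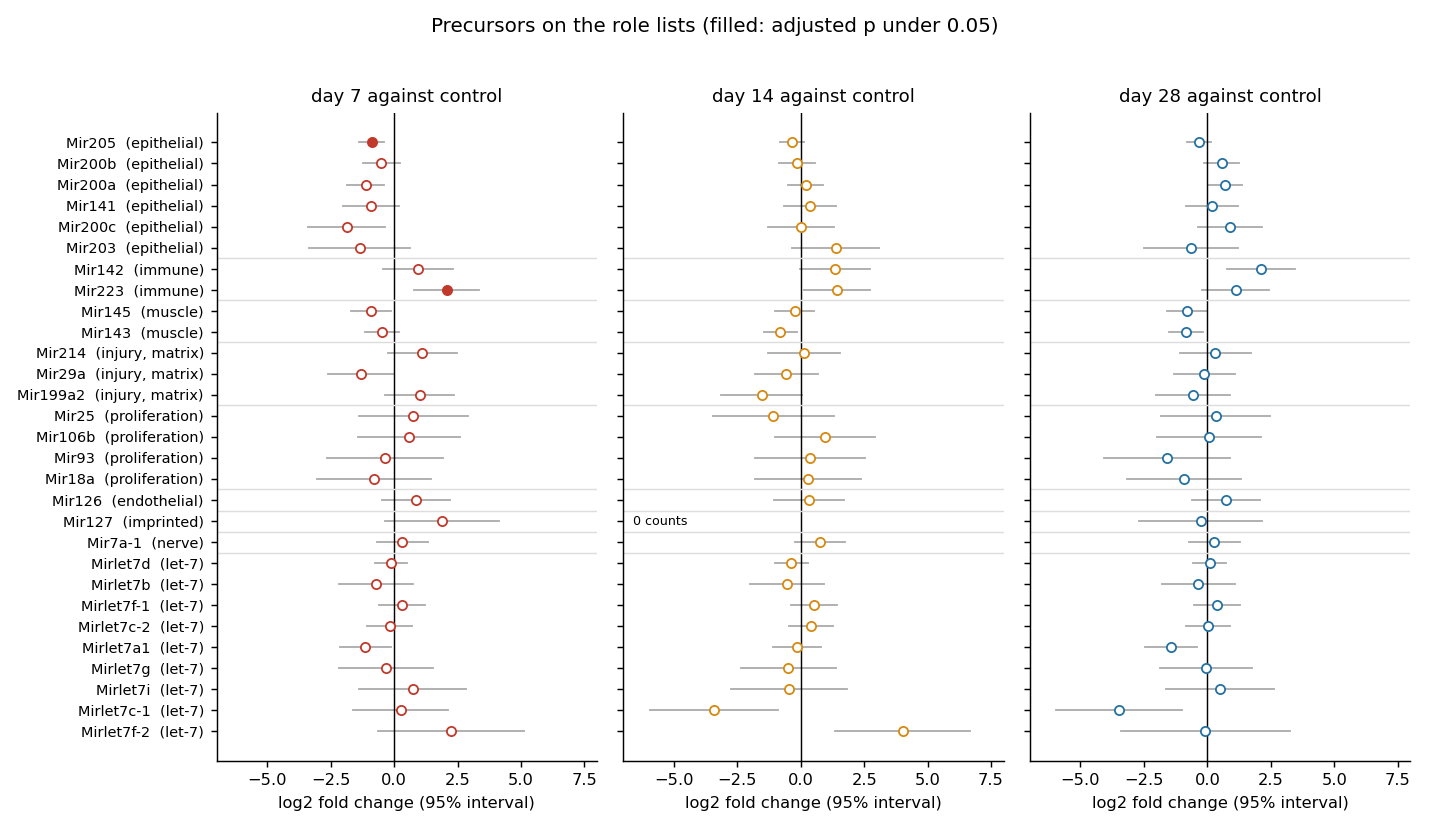
Log2 fold change of the 29 precursors on the role lists at each day against control, with 95% intervals from the SE. Filled points passed the test: Mir205 and Mir223 at day 7. All 6 epithelial points lie left of 0 at day 7 and both immune points right of 0 at all 3 days; Mir127 is not drawn at day 14, where it had 0 counts.

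Of the other roles no member was called against control. The injury and matrix list gave Mir29a, which targets collagen messages, and Mir199a2 with Mir214, a cluster on the opposite strand of Dnm3 known from mesenchyme. Mir199a2 stood at 0.0761, 0.105 and 0.0706 CPM at day 14 against 0.348, 0.556 and 0.488 CPM at day 7, with controls at 0.422, 0.111 and 0.219 CPM. Every day-14 library lay below every day-7 library, and the difference missed the threshold in edgeR (-2.54 ± 0.79, adjusted p = 0.0593), though DESeq2 called it (-2.59, adjusted p = 0.0319). Mir214 was at 1.10 ± 0.70 and Mir29a at -1.32 ± 0.66 on the log2 scale at day 7 (adjusted p = 0.341 and 0.218). Mir21, a widely studied injury microRNA, had 0 counts.

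The 4 detected proliferation precursors were Mir18a of the Mir17 cluster and Mir25, Mir93 and Mir106b, which lie in an array inside the replication licensing gene Mcm7. They held 30 to 59 counts each, none was called in any comparison, and Mcm7 itself was at 0.39 ± 0.21 at day 7 against control (adjusted p = 0.211). Mir126, known from endothelium and lying inside Egfl7, stood at 0.939, 0.262 and 0.325 CPM at day 7 against 0.141, 0.370 and 0.402 CPM in controls, with only day-7 replicate 1 above the controls (0.85 ± 0.69, adjusted p = 0.477). Endothelial markers were called higher at day 7 in 4 of 4 cases (sum 318 to 365 CPM against 107 to 119 CPM in controls). Mir7a-1, inside Hnrnpk and known from nerve and endocrine cells, was at 0.32 ± 0.51 (adjusted p = 0.738). The red cell list gave no member.

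The 9 let-7 members, whose biogenesis Lin28 blocks, showed no common direction. At day 7 against control 4 of 9 had a positive log2 fold change (median -0.12), at day 14 3 of 9 (median -0.37) and at day 28 4 of 9 (median -0.07). Mirlet7d, the most abundant of them, stood at 1.70, 1.54 and 1.63 CPM at day 7 against 1.90, 1.96 and 1.90 CPM in controls (-0.12 ± 0.33, adjusted p = 0.865). Mirlet7c-1 held 3, 9 and 2 counts in controls and 6, 8 and 3 at day 7, but 1, 0 and 0 at day 14 and 1, 0 and 0 at day 28. Mirlet7f-2 held 5, 10 and 7 counts at day 14, against 0, 0 and 1 in controls. Neither passed the test (adjusted p = 0.102 for Mirlet7c-1 at day 28 and 0.190 for Mirlet7f-2 at day 14, both against control). Mirlet7a1 was at -1.13 ± 0.51 at day 7 and -1.43 ± 0.51 at day 28 against control, without overlap and without a call (adjusted p = 0.160 and 0.0947). At day 7 the other members stood at -0.71 ± 0.75 (Mirlet7b), -0.18 ± 0.46 (Mirlet7c-2), 0.31 ± 0.47 (Mirlet7f-1), -0.31 ± 0.94 (Mirlet7g) and 0.73 ± 1.08 (Mirlet7i), each overlapping the controls.

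Apart from Mir431 and Mir485, described further below, 2 called precursors lie on no role list. Mir3102 (chromosome 1, 165921184 to 165921320, minus strand) stood at 3.29, 2.57 and 1.93 CPM at day 28, against 5.60, 4.35 and 4.55 CPM at day 7. Every day-28 library lay below every day-7 library, and also below the lowest control, with controls at 3.34, 3.59 and 3.40 CPM. Mir3102 fell by 1.04 ± 0.23 at day 28 against day 7 (adjusted p = 0.0125). Without day-28 replicate 3, the lowest, the difference was -0.86 (adjusted p = 0.0669). Neither day alone was called against control (0.61 ± 0.23 at day 7, adjusted p = 0.0881, and -0.43 ± 0.23 at day 28, adjusted p = 0.283), while the authors' deposited table gives Mir3102 at day 7 a log2 fold change of 0.82 with q = 0.00139.

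Mir6325 (chromosome 11, 36729251 to 36729391, plus strand) held 0, 2 and 0 counts at day 28, against 13, 18 and 14 counts in controls. Controls thus held 45 of its 65 counts, and without them the row would not reach the limit of 30. The ratio of summed counts, day 28 to control, was 0.0419 (95% exact interval 0.00492 to 0.160, counting error only), and the test called it (-4.36 ± 1.22, adjusted p = 0.0284). It held 1, 0 and 8 counts at day 7 and 2, 6 and 1 counts at day 14, so that all 9 injured libraries lay below all 3 controls. The day-7 and day-14 differences were not called (adjusted p = 0.160 and 0.351). The day-28 call was lost, at adjusted p 0.0592 to 0.0975, without day-28 replicate 1 or 3 or any one of the 3 control libraries.

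Mir568, the second most abundant row, lies on the opposite strand of Gramd1c. It stood at 7.00, 9.17 and 9.54 CPM in controls, 6.05, 4.71 and 3.54 CPM at day 7, 6.09, 5.62 and 4.38 CPM at day 14 and 6.03, 6.0 and 3.02 CPM at day 28. All 9 injured libraries lay below the lowest control. The log2 fold changes in edgeR were -0.72 ± 0.26, -0.68 ± 0.26 and -0.79 ± 0.26 at days 7, 14 and 28, with adjusted p = 0.0795, 0.258 and 0.0653. DESeq2 called the day-28 difference (-0.80, adjusted p = 0.0364). The authors' deposited table gives Mir568 q = 0.0427, 0.0193 and 0.0245 at the 3 days, with log2 fold changes of -0.53, -0.62 and -0.69.

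The other abundant rows were not called in any comparison. Mir3577 stood between 2.61 and 2.99 CPM at day 7, against 2.92 to 4.15 CPM in controls, and its log2 fold change lay at -0.18 ± 0.22 at days 7 and 14 and -0.05 ± 0.22 at day 28. Mir6315 was at 0.05 ± 0.31, 0.16 ± 0.31 and 0.40 ± 0.31 at days 7, 14 and 28. Mir186, inside Zranb2, stood at 1.48, 1.52 and 1.57 CPM in controls, 1.43, 0.850 and 0.813 CPM at day 7, 2.25, 1.60 and 1.59 CPM at day 14 and 1.90, 2.32 and 1.97 CPM at day 28. In CPM, which leaves out the TMM factors, its day-7 libraries lay below the controls and its later libraries above them. Neither difference was called (-0.44 ± 0.30 at day 7, adjusted p = 0.378, and 0.41 ± 0.29 at day 28, adjusted p = 0.434).

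The remaining 3 called precursors lie together on chromosome 6, downstream of the maternally expressed long non-coding RNA Meg3 (133658937 to 133691130, plus strand, rn6), which the deposited tables list as RGD1566401. In mammals this imprinted domain carries long arrays of microRNAs that are expressed from the same parental chromosome as Meg3, and in mouse Mir127 and Mir431 lie antisense to Rtl1 and direct its cleavage. The region was chosen after these values had been seen, so its values are a description. The table holds 49 precursor rows within 250 kb of the end of Meg3, all on the plus strand, 45 of them with a count and 5 of them members: Mir770, Mir431, Mir127, Mir1188 and Mir485.

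Mir127 (133713430 to 133713526) held 0 counts in all 3 day-14 libraries, against 4, 19 and 11 counts at day 7. The test called Mir127 lower at day 14 than at day 7 (adjusted p = 0.0361). Its ratio of summed counts, day 7 to day 14, had a lower 95% exact limit of 8.06 (counting error only). Controls held 5, 0 and 4 counts and day 28 held 1, 7 and 0. Mir485 (133885299 to 133885377) held 0 counts in each day-14 library against 3, 8 and 11 at day 7 (adjusted p = 0.0458, lower limit of the same ratio 5.06). It held 0, 1 and 4 counts in controls and 2, 3 and 0 at day 28. Mir431 (133711425 to 133711538) held 0 counts in each day-28 library against 2, 8 and 15 at day 7 (adjusted p = 0.0381, lower limit of the day 7 to day 28 ratio 6.13). It held 0, 2 and 4 counts in controls and 0, 1 and 2 at day 14. In each of the 3 rows day-7 replicates 2 and 3 were the highest libraries of the 12. Day 7 held 34 of the 51 counts of Mir127, 22 of the 32 of Mir485 and 25 of the 34 of Mir431, so none of them would reach the limit of 30 without day 7, and these calls against day 7 are not independent of the limit.

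These calls rest on few libraries. The Mir127 call was lost, at adjusted p 0.0524 to 0.116, without day-7 replicate 2 or 3, any one of the 3 day-14 libraries or control replicate 3. The Mir485 call was lost, at 0.0547 to 0.121, without day-7 replicate 2 or 3, any one of the 3 day-14 libraries, day-28 replicate 1 or 2 or control replicate 2, and with only these 2 groups in the fit (0.0654). The Mir431 call was lost, at 0.0503 to 0.129, without day-7 replicate 2 or 3, any one of the 3 day-28 libraries or control replicate 2 or 3, and with only these 2 groups in the fit (0.0613). None of the 5 members was called at day 7 against control (Mir770 1.09 ± 0.76, Mir431 1.99 ± 1.14, Mir127 1.88 ± 1.15, Mir1188 2.64 ± 1.34 and Mir485 2.06 ± 1.16).

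Summed over the 49 rows, the region held 2.71, 4.97 and 5.07 CPM at day 7 against 1.16, 0.924 and 1.90 CPM in controls. At day 14 the sum was 0.381, 1.08 and 0.847 CPM and at day 28 0.678, 0.659 and 0.339 CPM. The rows of the region below the limit of 30 counts summed to 1.88, 2.55 and 3.41 CPM at day 7 against 0.598, 0.592 and 1.17 CPM in controls, again without overlap. Meg3 stood at 62.9, 66.1 and 77.1 CPM at day 7 against 16.6, 18.9 and 20.5 CPM in controls, and rose by 2.01 ± 0.23 (adjusted p = 0.000204 in the gene table). It stood at 8.11, 13.5 and 14.0 CPM at day 14 (-0.65 ± 0.22 against control, adjusted p = 0.167) and at 8.88, 11 and 6.98 CPM at day 28, where it fell by 1.08 ± 0.23 (adjusted p = 0.00764). Both the region and Meg3 were thus highest in all 3 day-7 libraries, and whether the counts are reads of 1 long transcript was not tested.

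**Figure D4:**
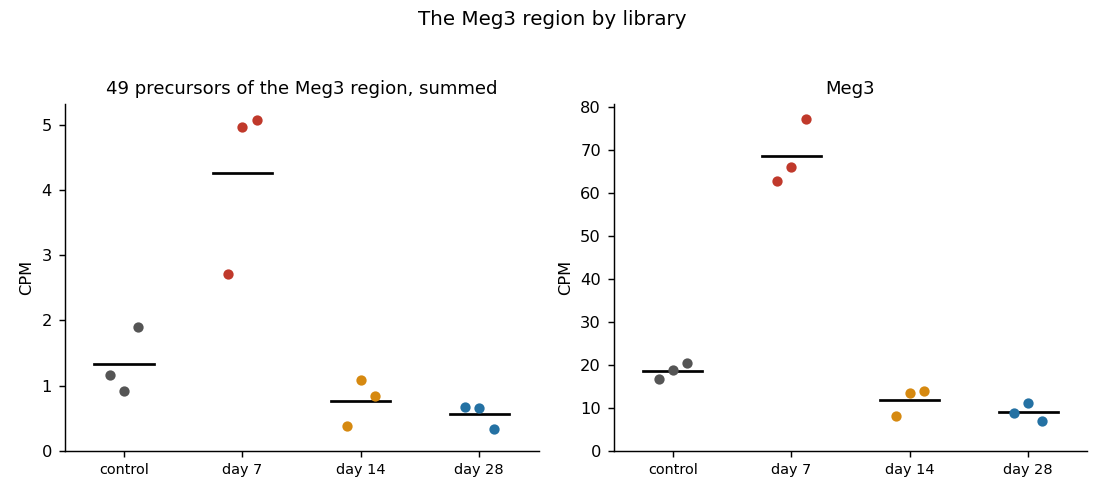
Summed CPM of the 49 precursor rows of the Meg3 region (left) and CPM of Meg3 (right) in each library at control, day 7, day 14 and day 28, with group means as bars. All 3 day-7 libraries lie above every other library in both panels, from 2.71 CPM up on the left and from 62.9 CPM up on the right.

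Reads on a hairpin may come from a host transcript, so each member was set beside the genes that hold it. The hairpin lay within the span of a gene on the same strand for 42 members (45 pairs with 38 genes), within a gene on the opposite strand only for 10, and outside every other gene for 52. Per kilobase, counts on the hairpin were below those of every same-strand host for 38 of the 42 members, with a median ratio of hairpin to host density of 0.160 over the 45 pairs and a range of 0.0113 to 8.57. Host density is taken over the deposited gene length, and whether a hairpin lies in an exon or an intron was not analysed here. Mir3064, inside the RNA helicase gene Ddx5, gave the lowest ratio.

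The exceptions were Mir200a and Mir200b, which exceeded both of their hosts, and Mir664-2 (1.43 times Rab3gap2) and Scarna15 (1.02 times its host). Mir200a had 1.77 times and Mir200b 1.81 times the density of the long non-coding gene LOC106182250, and 8.37 and 8.57 times that of Ttll10. LOC106182250 stood at 10.6, 11.4 and 12.8 CPM in controls, 8.24, 8.01 and 7.02 CPM at day 7, 18.8, 16.1 and 18.4 CPM at day 14 and 16.1, 20.3 and 37.0 CPM at day 28. Like Mir200a it was highest in day-28 replicate 3, and it rose by 1.5 ± 0.24 at day 28 against day 7 (adjusted p = 0.00231). Ttll10 stood at 5.46, 4.55 and 3.84 CPM at day 7 against 8.59, 10.5 and 10.3 CPM in controls, and fell by 0.96 ± 0.27 on the log2 scale (adjusted p = 0.0252).

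At day 7 against control 10 of the 38 hosts were called, at day 14 none and at day 28 5, where 22.8%, 1.91% and 16.2% of all genes tested were called. Across the 45 pairs the log2 fold changes of hairpin and host had a Spearman rho of 0.59 at day 7, -0.02 at day 14 and 0.34 at day 28 against control (Pearson r 0.55, 0.02 and 0.30). The 2 values of a pair come from the same libraries, and pairs that share a host or a gene are not independent, so these are descriptions. The next 2 pairs were chosen after their values were seen. Mir511, in the macrophage receptor gene Mrc1, was at 1.55 ± 0.74 at day 7 (adjusted p = 0.188) where Mrc1 was called higher at 1.63 ± 0.24. Mir126 was at 0.85 ± 0.69 where Egfl7 was called higher at 1.35 ± 0.17. In both pairs the host passed the test and the hairpin, with 120 and 147 counts in all, did not. Other called hosts had a hairpin that did not move with them, also picked after the values were seen. Ptk2 was called higher at 0.58 ± 0.11 where Mir151 was at -0.69 ± 0.63. Ska2 was called higher at 1.00 ± 0.19 where Mir301a was at 0.01 ± 0.68. At day 7 against control 31 of the 45 pairs had the same sign.

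**Figure D5:**
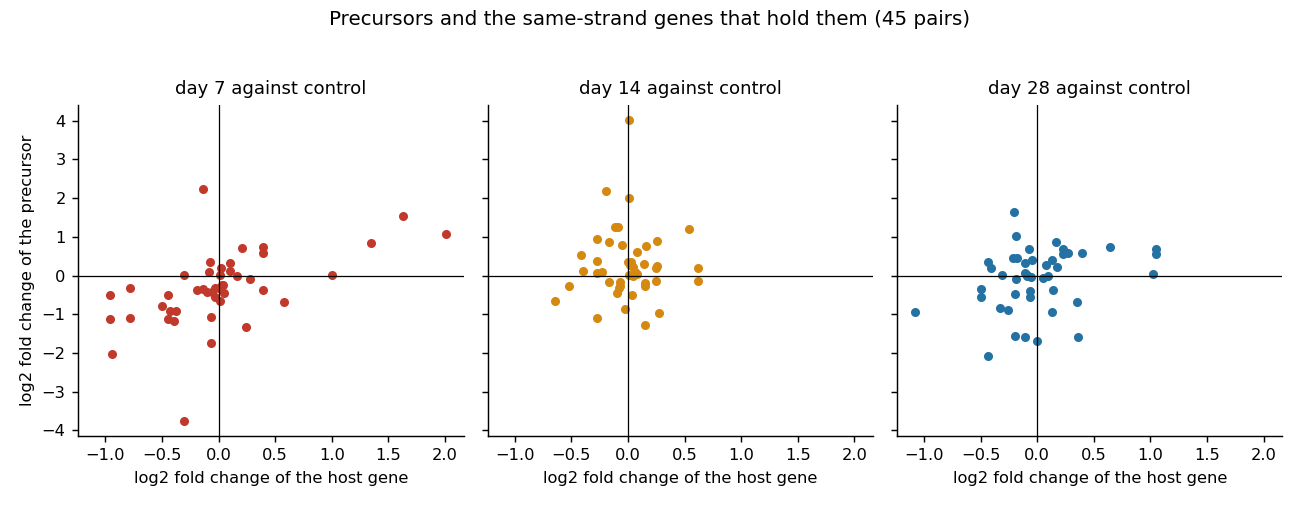
Log2 fold change of each precursor (vertical) against that of the same-strand gene that holds it (horizontal), 45 pairs, at each day against control. The axes have different scales. Points run from lower left to upper right at day 7 (Spearman rho 0.59) and show no such run at day 14 (rho -0.02), where hosts span a narrower range.

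Overlapping hairpins on opposite strands showed counts on mainly 1 of them. In 16 pairs a member overlapped a differently named precursor on the other strand that was no member. The members held 41 to 611 counts, and the partners held at most 5, with 11 of the 16 at 0. Members hold at least 30 counts and other precursors fewer, so part of this difference follows from how the pairs were chosen. Mir200a held 537 counts and Mir3548 across from it 1, and Mirlet7d held 611 and Mir3596b 0. A further pair was Mir126 with 147 counts across from Mir126a with 39, both members. Neighbours on a strand also came together: 38 members formed 18 clusters with gaps of at most 10 kb, such as Mir23a with Mir24-2 and Mir221 with Mir222.

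Genes that make and use microRNAs were set beside the share of all genes called. Of 28 listed machinery genes 25 were tested in the gene table. At day 7 against control 1 was called higher and 2 lower, or 12% where 22.8% of all genes were called. Ran, the GTPase that powers export of hairpins by exportin 5, stood at 95.8 ± 25.0 CPM at day 7 against 59.7 ± 7.12 CPM in controls (SD, n = 3 each; 0.81 ± 0.21, adjusted p = 0.0173). The Argonaute gene Ago3 stood at 27.3 ± 1.45 against 43.0 ± 4.94 CPM (-0.53 ± 0.14, adjusted p = 0.0188), and the helicase gene Ddx17, a partner of Drosha, at 72.5 ± 9.08 against 99.7 ± 8.44 CPM (-0.34 ± 0.09, adjusted p = 0.0249). Leaving out day-7 replicate 2 or 3 or control replicate 1 or 2 ended the Ran call. Leaving out day-7 replicate 3 or control replicate 2 ended the Ago3 call, and leaving out day-7 replicate 2 or 3 or control replicate 1 or 3 ended the Ddx17 call (adjusted p of all these 0.0573 to 0.0857). Drosha and Dicer1, named for their role, were not called at any day against control.

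At day 14 1 of 25 was called (4%, background 1.91%) and at day 28 3 of 25 (12%, background 16.2%). The RNA-editing enzyme gene Adar was called at day 14, at 152 ± 23.4 CPM against 99.9 ± 2.68 CPM in controls (0.61 ± 0.14, adjusted p = 0.0491). Leaving out any 1 of 9 libraries ended that call, at adjusted p up to 0.166; it held only without day-7 replicate 1, day-14 replicate 1 or day-28 replicate 3. At day 28 the helicase gene Mov10, whose product binds Argonaute, was higher at 26.4 ± 7.74 CPM against 12.3 ± 1.09 CPM (1.06 ± 0.23, adjusted p = 0.00875). Zcchc6, an older symbol of Tut7, which adds uridines to let-7 hairpins, was higher at 162 ± 12.8 against 124 ± 3.8 CPM (0.36 ± 0.08, adjusted p = 0.0127). Ago3 was again lower, at 29.9 ± 5.0 against 43.0 ± 4.94 CPM (-0.55 ± 0.14, adjusted p = 0.0206). The Zcchc6 call was lost without day-28 replicate 3 (adjusted p = 0.0520), and the Ago3 call without day-28 replicate 3 or control replicate 2 or 3 (0.0524 to 0.0895). Between days, 6 of 25 machinery genes (24%) were called at day 14 against day 7 (5 higher, 1 lower) and 1 (4%), Ddx5, at day 28 against day 7, where 16.8% and 16.3% of genes were called.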

How the data were processed

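Per the labels, bladder RNA was depleted of ribosomal RNA and sequenced as single reads of 50 bases. Tools listed in the submitters' processing notes are HTSeq 0.11.2, HISAT2 2.1.0 and bcl2fastq, with rn6 as the build. The sources used here do not say whether strand was used in counting. The deposited tables hold raw counts per gene and per non-coding transcript, and the authors' deposited comparison tables hold log2 fold changes with p-values and q-values.

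Library totals (26275314 to 30747936 counts) and TMM scaling factors came from the deposited gene table. One edgeR 4.0.16 quasi-likelihood model (R 4.3.3) with 4 group means was fitted over 12 libraries for 5245 non-coding transcripts with a summed count of at least 30, and another for 19909 genes, each with Benjamini-Hochberg adjustment over its whole table. CPM values use library totals without TMM. Standard errors were derived from each fold change and its F statistic. DESeq2 1.42.0, other scalings, filters and left-out libraries were alternatives. Only the edgeR model of non-coding transcripts was run on simulated counts, without scaling factors and with the same spread for every row. Figures used Python 3.11.15 with matplotlib 3.10.9.

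Exact intervals and their limits cover counting error only. Members and lists were chosen with earlier results of these data known. The text names the 10 most abundant members, every called member, every member on a role list, hosts and the leading machinery genes; other names were added after their values were seen. Precursors present in many near-identical copies, such as let-7, may share reads.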

Additional observations from a re-analysis of the deposited data

Results flagged for a closer look

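For 6 precursors the difference from control was not the same at 2 days, by edgeR's test of those days against each other. Mir200a differed between days 14 and 7 (adjusted p = 0.0359) and between days 28 and 7 (adjusted p = 0.00756), higher at the later day in 3 of 3 libraries each time. Mir200c was higher at day 28 than at day 7 in 3 of 3 libraries (2.79 ± 0.75 on the log2 scale, adjusted p = 0.0322). Mir3102 was lower at day 28 than at day 7 in 3 of 3 libraries (-1.04 ± 0.23, adjusted p = 0.0125). Mir431 had 0 counts in 3 of 3 day-28 libraries, against 25 over day 7 (adjusted p = 0.0381).

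The same held for Mir127 and Mir485, with 0 counts in 3 of 3 day-14 libraries against 34 and 22 over day 7 (adjusted p = 0.0361 and 0.0458). Mir431, Mir127 and Mir485 reached the limit of 30 counts only through day 7, so their tests against day 7 are not independent of it.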

How the results depend on the processing

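No called value changed sign under any alternative run, while several counts of calls moved. The tally of alternatives covers named precursor values with unadjusted p under 0.05 in the values reported. Of these alternatives, 765 kept direction and side of the threshold, 36 passed only under the alternative and 61 only in the values reported. Values at larger p, and alternatives that gave no adjusted p, were left out of the tally. At day 7 against control the 2 precursor calls became 4 with DESeq2 and 4 with no filter, and 0 to 4 with 1 library left out. At day 14 the count stayed 0 under every alternative run. At day 28 against control the 1 call became 2 with TMM of the non-coding table, 3 with DESeq2, 5 with no filter and 0 with a member limit of 100 counts, and 0 to 3 with 1 library left out. At day 14 against day 7 the 3 calls became 5 without TMM, 6 with DESeq2, 6 with no filter, 1 with the limit of 100 and 1 with only the groups compared, and 0 to 5 with 1 library left out. At day 28 against day 7 the 4 calls became 2 with the limit of 100 and 2 with only the groups compared, 5 without TMM (3 higher, 2 lower), 5 with DESeq2 and 5 with no filter, and 0 to 5 with 1 library left out. The calls split higher to lower as 1 to 1 at day 7 against control, but 0 to 3 without TMM and 2 to 0 with TMM of the non-coding table. At day 28 against control that table's TMM gave 1 to 1 in place of 0 to 1. At day 14 against day 7 the split was 1 to 2, but 3 to 2 without TMM and 0 to 2 with TMM of the non-coding table. These scalings moved the median of all transcripts at day 7 against control by -0.12 and 0.18. For machinery genes, DESeq2 gave 5 calls at day 7 and 2 at day 14; with 1 library left out the 3 calls of day 7 became 0 to 5, the 1 of day 14 0 to 1 and the 3 of day 28 1 to 4. The cause was not tested in any of these.

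Replicate numbers were not treated as pairs in the main model. A check for pairing gave r of -0.05 to 0.19 for same-numbered libraries of the groups compared, over 15 pairs. This r is not the correlation of levels between libraries. With the replicate block, precursors had 4 calls at day 7 (Mir145, Mir205, Mir223 and Mir568) and 3 at day 28 against control, and machinery genes 5 at day 7 and 0 at day 14. Between days it ended the calls of Mir127 (adjusted p = 0.0537) and Mir485 (0.0655) at day 14 against day 7 and of Mir200c (0.0515) at day 28 against day 7. The block also added calls of Mir145 at day 14 against day 7 (0.86, adjusted p = 0.0496) and of Mir31 at day 28 against day 7 (-1.78, adjusted p = 0.0408).

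Most rows were sparse, and the median member held 82.5 counts over 12 libraries. The median standard error of 0.94 on the log2 scale at day 7 against control means that only a large change in a typical row could be called. Replicates of a group differed by 2.86 to 3.64 times the counting variance. The parts of depth and of other spread between libraries were not tested.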
